A study of Mus musculus with 6 samples.

Results

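The collagen gene family was examined in cultures of mouse cerebral cortex exposed to terahertz radiation, whose frequencies lie above those of microwaves and below those of infrared light. Its members were all array probes that carry a gene name of the form Col, number, a, number, which gave 91 probes (109 spots) of 56605 probes that are not controls, and 44 of 37074 gene names on the array. The genes were divided into 9 fibrillar genes (types I, II, III, V and XI), 8 basement membrane genes (types IV, XV and XVIII) and 27 others. The irradiated cultures (n = 3) were exposed to 3.1 THz for 3 hours daily on days 5 to 9 in vitro, and the control cultures (n = 3) carry no exposure in their labels. Both groups were primary cortical cultures from C57/B6 embryos at embryonic day 16, grown in Neurobasal medium with B27 plus and collected at day 12 in vitro. RNA was read on 1-colour Agilent arrays, 1 for each culture. The labels number the cultures 1 to 3 in each group without naming separate dissections, so p-values reflect only how far these samples spread, which may be technical.

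Collagens are secreted or membrane proteins built from chains that wind around each other in a helix, which requires a glycine at regular steps along the chain. Fibrillar collagens form the cables of connective tissue, while type IV collagen forms the sheet of basement membranes. In the brain, fibrillar collagens are mainly found in the meninges and around vessels, and type IV collagen in the vascular and pial basement membranes. A few collagens, among them the products of Col19a1 and Col25a1, are made by neurons.

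The helix is visible in the array itself. Of the 91 collagen probes, 4 (4.4%) carry a codon of the form GGN, which encodes glycine, at a step of 9 bases along the probe, with at least 6 such codons in a row. Over all 56605 probes this share was 0.0159%. The repeat was searched on the strand of the probe as printed on the array. The 5 other probes that carry it belong to Cplx2, Fcnb, Scara5, Sox5 and Vash1. The 4 collagen probes are shown because they read the coding part of the helix itself, and capitals mark the GGN codons:
Col5a3 (mm9, minus strand): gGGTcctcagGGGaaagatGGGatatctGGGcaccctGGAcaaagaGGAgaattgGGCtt
Col6a3 (mm9, minus strand): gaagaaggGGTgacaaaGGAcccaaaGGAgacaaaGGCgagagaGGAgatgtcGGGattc
Col11a2 (mm9, plus strand): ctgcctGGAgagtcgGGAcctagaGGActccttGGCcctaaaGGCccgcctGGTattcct
Col15a1 (mm9, plus strand): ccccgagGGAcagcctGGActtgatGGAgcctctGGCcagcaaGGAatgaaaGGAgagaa
Per the file headers and columns, the Col5a3 probe lies at chr9:20590066-20590795, the Col6a3 probe at chr1:92689602-92690594, the Col11a2 probe at chr17:34189287-34189453 and the Col15a1 probe at chr4:47283786-47283845. Each probe is 60 bases long. The first 3 span 730, 993 and 167 bases of the genome, so that their sequence is split by at least 1 intron, and the Col15a1 probe spans 60 bases. An annotation of build mm9 was not used here.

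The scanner software placed 61 of the 91 collagen probes well above background on 3 or more arrays of the 6, and these are called measured. They stand for 38 of the 44 genes, made up of 9 of 9 fibrillar, 6 of 8 basement membrane and 23 of 27 other genes. No probe was measured for Col4a3, Col6a6, Col15a1, Col24a1, Col27a1 and Col28a1. The fibrillar group holds only the types named above, and Col24a1 and Col27a1 were counted among the others. Of the 91 probes, 53 were well above background on all 6 arrays and 23 on none. At the limit, a probe of Col11a1 passed with 3 arrays, at means of -5.33 in irradiated and -5.48 in control cultures. A probe of Col27a1 and one of Col6a3 stayed out with 2 arrays each, at means of -5.69 and -5.64 in irradiated and -6.90 and -5.83 in control cultures. Annotation went with detection, since 55 of 67 probes annotated to a curated RefSeq transcript were measured, against 6 of 24 annotated otherwise. Col1a2 shows this within a gene: 1 of its 4 probes was measured.

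Values are given as relative log2 signal, which is the log2 of the scanner's processed signal minus the 75th percentile of that array, so that 0 is the 75th percentile. Each difference is the irradiated mean minus the control mean of these log2 values. The probe with the highest mean stands for a gene unless another is named, and levels of different genes cannot be compared on an array. The 75th percentile itself was 635 to 892 signal units on the irradiated arrays and 319.8 to 707.7 on the controls, and 72.9% to 74.7% of spots on irradiated arrays and 64.9% to 72.6% on control arrays were well above background. Control 1 lay at -148 on the first principal component, and the other 5 arrays between 11.5 and 62.0. All 6 arrays shared 1 slide, whose row 1 held the 3 controls and irradiated 1. All 10 neuron, 8 astrocyte and 8 microglia markers were measured.

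Irradiated cultures were set against controls to see whether collagen expression differed after exposure. In limma, no collagen probe had a Benjamini-Hochberg adjusted p under 0.05, and 0.519 was the smallest in the family. Over all 40552 measured probes the share that passed was 0% as well. At an unadjusted p under 0.05 there were 2 higher probes, of Col23a1 and Col6a5, and 2 lower probes, of Col22a1 and Col26a1. The Col6a5 probe was well above background on 3 irradiated arrays and 1 control array, so it passed the filter only through the irradiated cultures. Together the 4 probes make up 6.56% of the 61 probes, where the background was 9.03% (4.02% higher and 5.01% lower). The count moved with that of the whole array. It was 0 without irradiated 1, where 3.06% of all measured probes passed, and 1 without irradiated 2 (1.64%, background 3.10%). It was 2 without control 1 (3.28%, background 5.61%) and 8 without control 3 (13.1%, background 15.7%). With normexp background correction it was 11, all lower (18%, background 16.9%). With quantile normalisation it was 2 higher and 4 lower (9.84%, background 9.13%), and with the percentile taken over the probes detected on all arrays 3 higher and 0 lower (4.92%, background 8.73%).

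The median absolute difference was 0.27 for the measured collagen probes and 0.27 for all measured probes. Differences ran from -0.74 to 1.06, the upper end being the Col6a5 probe that passed the filter only through the irradiated cultures. Of the 61 differences, 48 (78.7%) were smaller than the pooled SD within groups, against 56.8% of all measured probes. The 3 irradiated arrays lay all above the 3 controls for 3 collagen probes (4.92%, background 5.76%), among them that Col6a5 probe. They lay all below for 4 (6.56%, background 9.77%). The 95% interval reached 0.75 to either side at the median, and for 29 of 61 probes it left out a change of 1 log2 unit, in both directions. The number of arrays limits the precision for the others.

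**Figure D1:**
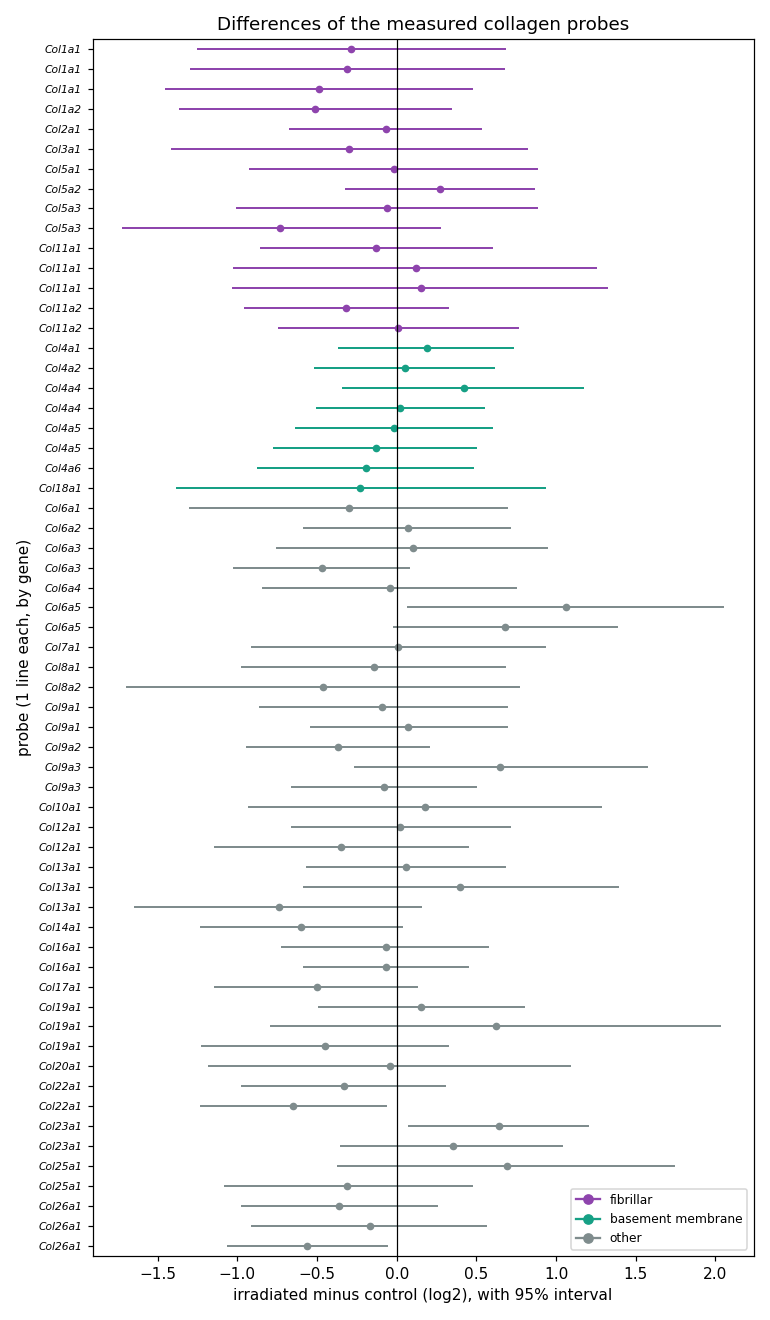
Difference of irradiated minus control cultures (log2, x axis) for each of the 61 measured collagen probes (rows, labelled by gene), as points with 95% intervals from limma, coloured by class. All intervals but those of 4 probes cross 0, and the points run from -0.74 to 1.06. The highest point is a Col6a5 probe that passed the filter only through the irradiated cultures.

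Among the fibrillar genes, type I collagen is a heterotrimer of the products of Col1a1 and Col1a2. Col1a1 measured -0.87, -0.28 and -1.51 in irradiated cultures 1 to 3, against -0.01, -0.08 and -1.10 in control cultures 1 to 3. The 2 groups overlapped, and culture 3 was the lowest of each group. The difference was -0.49 (95% interval -1.45 to 0.47, limma adjusted p 0.663), and its other 2 measured probes gave -0.29 and -0.31. Without irradiated 3 it was -0.18 and without control 3 it was -0.84. Col1a2 measured 0.78, 1.24 and 1.06 in irradiated cultures, against 2.06, 1.81 and 0.73 in controls. Controls 1 and 2 lay above all irradiated cultures and control 3 below them all. The difference was -0.51 (-1.36 to 0.34, adjusted p 0.605), with -0.25 without control 1 and -0.91 without control 3. The main probes lie on mm9 chromosome 11 from 94814188 to 94814247 for Col1a1 and on chromosome 6 from 4490619 to 4490678 for Col1a2.

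Col3a1, whose product forms homotrimers in the same fibrils, measured -1.83, -0.63 and -2.11 in irradiated cultures, against -1.38, -0.49 and -1.81 in controls. In both groups culture 2 was the highest and culture 3 the lowest, and the difference of -0.30 (-1.41 to 0.82, adjusted p 0.844) was smaller than either group's SD of 0.79 and 0.67. Type V collagen starts fibrils of type I. Col5a1 measured -0.83, -1.56 and -1.79 in irradiated cultures, against -0.67, -1.59 and -1.85 in controls, and culture 3 was the lowest of each group. Its difference was -0.02 (-0.92 to 0.88). Col5a2, another type V chain, measured -3.25, -3.72 and -4.02 in irradiated cultures, against -4.08, -3.81 and -3.91 in controls, and irradiated 1 alone stood out, on the upper side. Its difference was 0.27 (-0.32 to 0.86).

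Col5a3, the remaining type V chain, measured 0.15, -0.81 and -0.35 in irradiated cultures, against 0.51, -0.57 and -0.77 in controls, a difference of -0.06 (-1.0 to 0.88). The groups overlapped. Its helix probe printed above differed by -0.73 (-1.72 to 0.27), and was well above background on only 2 arrays of each group. Type XI collagen occurs with type II in cartilage. Col11a1 measured -0.17, -0.22 and -0.65 in irradiated cultures, against 0.38, -0.41 and -0.62 in controls, where control 1 was the highest array. Its difference was -0.13 (-0.85 to 0.60), and its other measured probes gave 0.12 and 0.15. Col11a2 measured -2.89, -2.54 and -2.34 in irradiated cultures, against -3.20, -2.50 and -2.09 in controls, and culture 1 was the lowest of each group. The difference was 0.01 (-0.74 to 0.76), while its helix probe differed by -0.32 (-0.95 to 0.32). Col2a1, the main cartilage chain, measured -5.08, -4.42 and -4.53 in irradiated cultures, against -4.77, -4.35 and -4.70 in controls, with overlapping groups and a difference of -0.07 (-0.67 to 0.53).

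As a class, 11 of the 15 measured fibrillar probes had a difference below 0, but none passed the adjusted or the unadjusted threshold. Of all measured probes, 56.0% lay below 0. The median difference was -0.13 for the class and -0.05 for all measured probes. With the percentile taken over probes detected on all arrays, 8 of 15 were below 0 and the medians were -0.04 and 0.03. With normexp correction, 15 of 15 were below 0, as were 29871 of the 40552 measured probes, and the medians were -0.29 and -0.20.

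**Figure D2:**
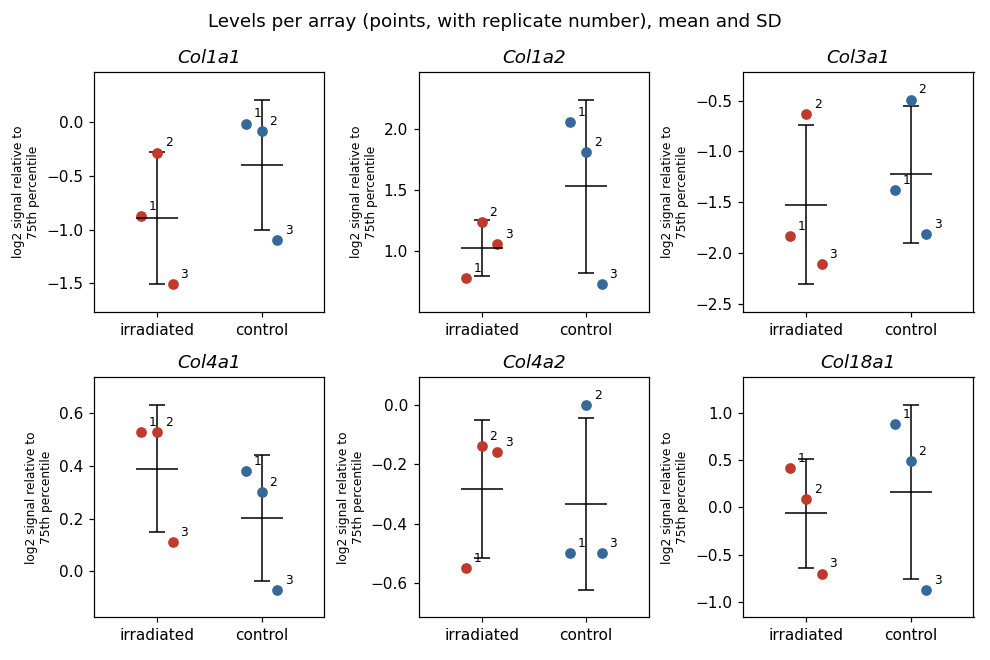
Relative log2 signal (y axis, a scale of its own in each panel) of 6 collagen chains in irradiated (left) and control (right) cultures. Points are arrays with their replicate number, and bars show mean and SD (n = 3 each). The groups overlap in every panel, and array 3 is the lowest of its group for Col1a1, Col3a1, Col4a1 and Col18a1 in both groups.

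Among the basement membrane genes, Col4a1 and Col4a2 encode the chains of the common type IV network. In RefSeq, on build GRCm38.p6, they are read in opposite directions from starts 21 bases apart, at positions 11312826 and 11312805 of chromosome 8. Col4a1 measured 0.53, 0.53 and 0.11 in irradiated cultures, against 0.38, 0.30 and -0.07 in controls. Irradiated 1 and 2 lay above all controls and irradiated 3 below controls 1 and 2. The difference was 0.19 (-0.36 to 0.73, limma adjusted p 0.783). Col4a2 measured -0.55, -0.14 and -0.16 in irradiated cultures, against -0.50, 0.00 and -0.50 in controls, and the highest value was a control and the lowest an irradiated culture, with the rest interleaved. The difference was 0.05 (-0.51 to 0.61, adjusted p 0.959). Both chains therefore had intervals that leave out a change of 1 log2 unit.

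Col4a5 and Col4a6 encode chains of another type IV network and also lie head to head, with starts 1343 bases apart on chromosome X. Col4a5 measured -0.80, -0.95 and -1.30 in irradiated cultures, against -0.52, -0.83 and -1.31 in controls. Col4a6 measured -1.16, -1.03 and -1.66 in irradiated cultures, against -0.82, -0.89 and -1.56 in controls. For both genes the groups overlapped and the cultures numbered 3 were the lowest of each group. The differences were -0.13 (-0.77 to 0.50) for Col4a5 and -0.19 (-0.87 to 0.48) for Col4a6. Col4a4, a chain of the kidney's glomerular network, measured -3.37, -3.09 and -3.26 in irradiated cultures, against -4.35, -3.24 and -3.37 in controls, where control 1 lay below all others. Its difference was 0.42 (-0.34 to 1.17), with 0.07 without control 1 and -0.17 with normexp correction. The other measured probe of Col4a4 differed by 0.02.

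Col18a1, the source of the angiogenesis inhibitor endostatin, had 1 probe on the array. It measured 0.42, 0.09 and -0.70 in irradiated cultures, against 0.88, 0.49 and -0.87 in controls. The cultures numbered 3 were the lowest of each group, and the difference between groups was -0.23 (-1.38 to 0.93, adjusted p 0.892). Of the 8 measured basement membrane probes, 4 lay above and 4 below 0, with a median of 0.00, and none passed the adjusted or the unadjusted threshold.

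The other measured collagens include the chains of type VI, which form beaded filaments near cell surfaces. Col6a1 measured -0.63, -0.32 and -1.17 in irradiated cultures, against 0.07, 0.05 and -1.32 in controls, with a difference of -0.30 (-1.30 to 0.69). Col6a2 measured -3.73, -3.77 and -4.19 in irradiated cultures, against -3.58, -3.89 and -4.41 in controls, with a difference of 0.07 (-0.58 to 0.71). Col6a3 measured -2.32, -2.18 and -3.28 in irradiated cultures, against -2.45, -2.43 and -3.19 in controls, with a difference of 0.10 (-0.75 to 0.94). For all 3 chains the cultures numbered 3 were the lowest of each group. The helix probe of Col6a3 behaved otherwise: it measured -4.35, -4.12 and -3.97 in irradiated cultures, against -3.90, -3.36 and -3.78 in controls, all irradiated values below all controls, with a difference of -0.47 (-1.02 to 0.08, adjusted p 0.520).

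Col6a5 encodes another type VI chain. Its brighter probe measured -1.16, -2.24 and -1.73 in irradiated cultures, against -2.55, -2.34 and -2.28 in controls, all irradiated values above all controls, with a difference of 0.68 (-0.02 to 1.38, limma adjusted p 0.519). Its dimmer probe measured -4.20, -4.72 and -5.15 in irradiated cultures, against -6.63, -5.42 and -5.21 in controls, also without overlap, and was well above background on 3 irradiated arrays and 1 control array, so that it passed the filter only through the irradiated cultures. That difference was 1.06 (0.07 to 2.05, unadjusted p 0.0392, adjusted p 0.519), and -0.27 with normexp correction. The difference of the brighter probe was 0.31 with normexp correction.

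Col23a1 encodes a transmembrane collagen. Its main probe measured -3.62, -3.82 and -4.14 in irradiated cultures, against -4.59, -4.22 and -4.69 in controls, with no overlap. The difference was 0.64 (0.08 to 1.2, limma unadjusted p 0.0309, adjusted p 0.519), the other measured probe gave 0.35, and normexp correction turned the main probe's difference to -0.20. Col25a1, the transmembrane collagen of neurons that is also found in amyloid plaques, measured -1.76, -1.78 and -1.18 in irradiated cultures, against -3.19, -1.37 and -2.20 in controls. Control 1 was the lowest and control 2 lay among the irradiated cultures, and the difference was 0.69 (-0.37 to 1.74). It was 0.22 without control 1 and 0.29 with normexp correction. The other measured probe of Col25a1 differed by -0.31.

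Col22a1 encodes a fibril-associated collagen known from muscle-tendon junctions. Its main probe measured 0.49, 0.41 and 1.06 in irradiated cultures, against 1.24, 0.64 and 1.09 in controls, overlapping, with a difference of -0.33 (-0.97 to 0.30). Its second probe measured -4.38, -4.73 and -4.38 in irradiated cultures, against -3.48, -3.90 and -4.17 in controls, without overlap, with a difference of -0.65 (-1.23 to -0.07, limma unadjusted p 0.0337, adjusted p 0.519). Col26a1 measured 2.19, 2.57 and 3.02 in irradiated cultures, against 2.27, 3.07 and 2.96 in controls, a difference of -0.17 (-0.91 to 0.56). Its groups overlapped at that probe, whereas a dimmer probe measured -2.82, -2.46 and -2.47 in irradiated cultures, against -2.01, -1.87 and -2.18 in controls, without overlap. That probe differed by -0.56 (-1.06 to -0.06, unadjusted p 0.0319, adjusted p 0.519), and a further probe by -0.36.

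Col19a1, a fibril-associated collagen of neurons that in mouse takes part in synapse formation, measured -0.73, -0.36 and -0.05 in irradiated cultures, against -0.89, -0.52 and -0.20 in controls. The groups overlapped, with culture 1 the lowest and culture 3 the highest of each, and the difference was 0.15 (-0.49 to 0.80, adjusted p 0.863). Its other 2 measured probes gave 0.62 and -0.45. Col16a1, another fibril-associated collagen, measured 2.84, 2.67 and 3.03 in irradiated cultures, against 3.17, 2.74 and 2.83 in controls, a difference of -0.07 (-0.58 to 0.45) with overlapping groups. Its SDs were 0.18 in irradiated and 0.22 in control cultures. Col12a1, of the same subfamily, measured -3.14, -2.18 and -2.67 in irradiated cultures, against -2.91, -2.42 and -2.73 in controls. The difference was 0.02 (-0.66 to 0.71), and the other measured probe of Col12a1 gave -0.35.

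The type VIII chains form networks under endothelia. Col8a1 measured 0.15, 0.01 and 1.29 in irradiated cultures, against 0.71, 0.52 and 0.64 in controls, so the irradiated values spanned the controls on both sides, and the difference was -0.14 (-0.97 to 0.68). Col8a2 measured -3.15, -4.42 and -2.66 in irradiated cultures, against -2.15, -3.54 and -3.16 in controls, where culture 2 was the lowest of each group. Its difference was -0.46 (-1.69 to 0.77).

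Type IX chains decorate cartilage fibrils. Col9a1 measured -1.17, -1.39 and -0.94 in irradiated cultures, against -1.43, -1.49 and -0.80 in controls, a difference of 0.07 (-0.54 to 0.69). Col9a2 measured -1.12, -0.77 and -0.44 in irradiated cultures, against -0.22, -0.42 and -0.57 in controls, a difference of -0.37 (-0.94 to 0.20). Col9a3 measured -0.89, -0.30 and -0.82 in irradiated cultures, against -2.18, -1.02 and -0.77 in controls, a difference of 0.65 (-0.26 to 1.57) that was 0.23 without control 1. The groups of all 3 chains overlapped, and the chains differed in sign at their main probes. The other measured probes of Col9a1 and Col9a3 gave -0.09 and -0.08. The 7 remaining measured genes, Col6a4, Col7a1, Col10a1, Col13a1, Col14a1, Col17a1 and Col20a1, had differences from -0.74 (Col13a1) to 0.18 (Col10a1) at their main probes, and of these only Col14a1, another fibril-associated member, had all irradiated values below all controls, at -0.60 (adjusted p 0.519).

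Probes of one gene often differed. Of 18 genes with at least 2 measured probes, 9 had probes on both sides of 0. Those of Col19a1 ran from -0.45 to 0.62 and those of Col13a1 from -0.74 to 0.40. The upper Col13a1 probe was well above background on 3 irradiated arrays and 1 control array, and gave -0.50 with normexp correction. The probes of Col1a1, Col22a1, Col23a1, Col26a1 and Col6a5 were among those that shared 1 sign.

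**Figure D3:**
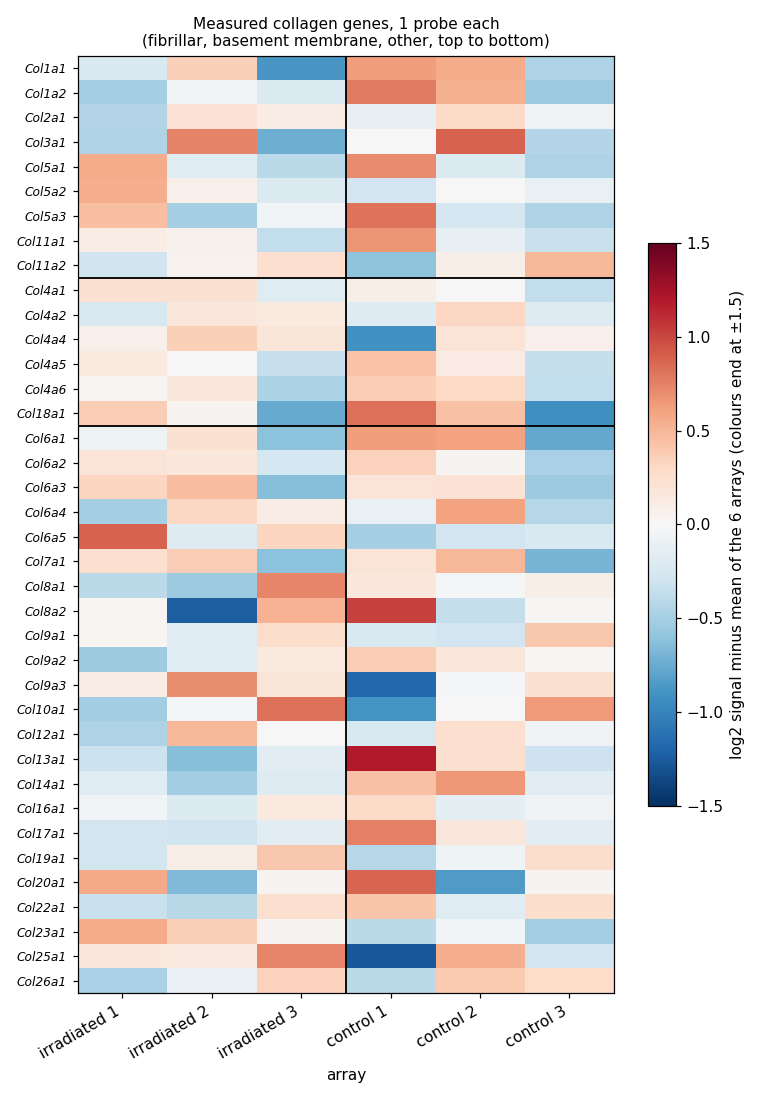
Relative log2 signal of each measured collagen gene (rows, main probe) minus its mean over the 6 arrays, by array (columns, irradiated left and control right). Red is above and blue below the gene's mean, and lines divide fibrillar, basement membrane and other genes. Col1a1, Col6a1, Col7a1 and Col18a1 are blue on both arrays numbered 3.

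A layout shared by many of these values was counted after it had been seen. On both arrays numbered 3 the signal was below that of the other 4 arrays for 18 of 61 measured collagen probes (29.5%), where the share of all measured probes was 7.14%. They comprised 7 of 15 fibrillar probes (3 each of Col1a1 and Col11a1 and the probe of Col5a1) and 5 of 8 basement membrane probes (Col4a1, 2 of Col4a5, Col4a6 and Col18a1). The 6 of 38 others were the main probes of Col6a1, Col6a2, Col6a3 and Col7a1 and dimmer probes of Col19a1 and Col23a1. The main Col19a1 probe was instead highest on array 3 of each group (-0.05 and -0.20). At the main Col23a1 probe, irradiated 3 (-4.14) lay above controls 1 and 2 (-4.59 and -4.22). Probes of 1 gene share their target, so these counts are not over independent items. A moderated F test of the replicate number in limma, with group as the other term, gave an adjusted p under 0.05 for 0 of 61 collagen probes and for 0.00247% of all probes (1 probe). The smallest adjusted p in the family was 0.148, for Col3a1, which averaged -1.61, -0.56 and -1.96 over the arrays numbered 1, 2 and 3. At an unadjusted p under 0.05 the test found 14 of 61 collagen probes (23.0%), 7 of them fibrillar, with a background of 12.7%. This F test takes no account of direction, so the 14 probes mix layouts. Col18a1 averaged 0.65, 0.29 and -0.78 over the arrays numbered 1, 2 and 3, whereas Col10a1 averaged -4.31, -3.62 and -2.88.

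Markers of other cells were set beside this layout. The median deviation of the fibrillar class from the 6-array mean was 0.03, 0.08 and -0.37 on irradiated arrays 1 to 3, against 0.40, 0.29 and -0.46 on control arrays 1 to 3. That of the basement membrane class was 0.07, 0.16 and -0.26 on irradiated arrays, against -0.02, 0.26 and -0.28 on controls. Both classes were thus lowest on the arrays numbered 3, whereas the other collagens stood at 0.07 and 0.01 there and all measured probes at 0.01 and 0.01. All 12 of 12 markers of meningeal and perivascular fibroblasts were measured, and their median deviation was 0.18, -0.06 and -0.71 on irradiated arrays, against 0.59, 0.14 and -0.42 on controls. Their summed signal, in multiples of the 75th percentile, ranged from 9.88 to 16.7 in irradiated and from 10.1 to 24.8 in control cultures. Of 10 markers of pericytes and smooth muscle 9 were measured. Their median deviation was 0.64, -0.25 and -0.79 on irradiated arrays, against 1.01, -0.06 and -0.67 on controls. Their sums were 23.2, 22.2 and 15.5 on irradiated arrays, against 18.5, 16.1 and 17.5 on controls, where control 2 was the lowest. Astrocyte markers (-0.52 on irradiated 3 and -0.45 on control 3) and microglia markers (-1.20 and -1.21) were low on the arrays numbered 3 too. The neuron (0.16 and 0.14), oligodendrocyte lineage (0.02 and 0.10) and choroid plexus (0.87 and 0.07) markers were not. The astrocyte medians were 0.41 and -0.20 on irradiated 1 and 2, and 0.71 and -0.16 on controls 1 and 2. For microglia they were 1.64 and -0.41 on irradiated 1 and 2, and 1.16 and -0.36 on controls 1 and 2. In both lists the array numbered 1 was thus the highest of each group. Of 8 endothelial markers 4 were measured, while the defining markers Cldn5, Cdh5, Tek and Tie1 were not. The median deviation of the 4 measured was -0.20, 0.08 and -0.34 on irradiated arrays, against 0.22, 0.31 and -0.22 on controls. This median was thus also lowest on the arrays numbered 3 in each group. Flt1, Kdr and Emcn were each lowest there, but Pecam1 was highest on irradiated 3 (-3.03, -2.94 and -2.89 on irradiated 1 to 3). The sums of the 4 measured markers were 0.364 to 0.484 in irradiated and 0.373 to 0.536 in control cultures. The part of these cells in the layout was not tested, and in a bulk sample fewer cells of a type and less RNA per cell cannot be told apart.

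**Figure D4:**
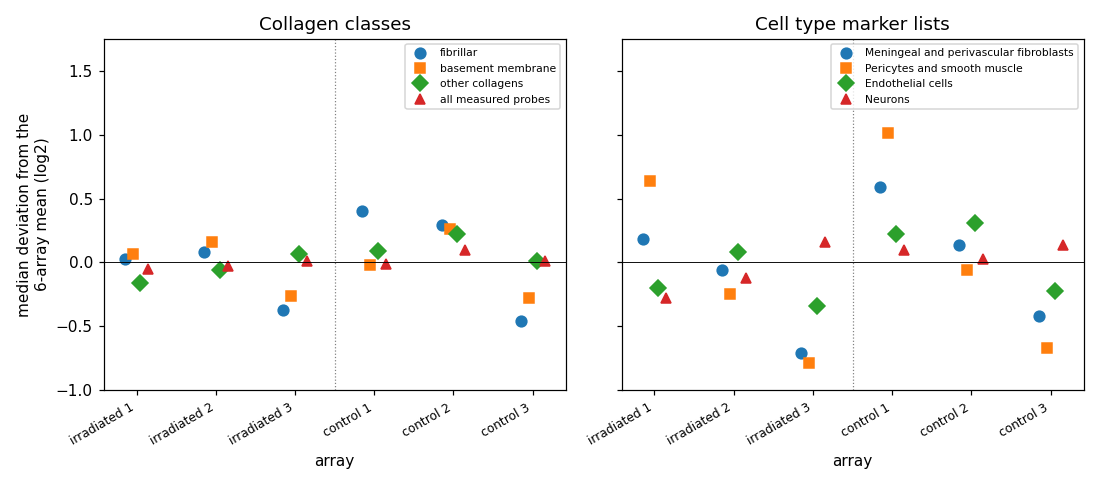
Median deviation from the 6-array mean (log2, y axis) on each array (x axis, irradiated left and control right) for the collagen classes and all measured probes (left panel) and for 4 cell type marker lists (right panel). The medians of fibrillar and basement membrane collagens and of the fibroblast, pericyte and endothelial markers are lowest on the arrays numbered 3 in each group.

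The genes that make, process and bind collagen gave no call either. No measured gene of 7 lists passed the adjusted threshold in limma. The median difference over all measured genes, with 1 probe each, was -0.13, so most genes lay below 0. Counts of list genes below 0 are to be read beside that shift. Of 19 genes of collagen modification and folding, 6 lay above and 13 below 0 (median -0.09). P3h1, a prolyl 3-hydroxylase, measured 1.92, 2.05 and 2.90 in irradiated cultures, against 3.95, 3.01 and 2.80 in controls, a difference of -0.96 (adjusted p 0.519), with its probes ranging from -0.96 to 0.93. Ppib, a prolyl isomerase of the same complex, differed by -0.44 (adjusted p 0.528). Of 11 measured genes of propeptide cleavage and crosslinking, 1 lay above and 10 below 0 (median -0.20), with Adamts14, a procollagen protease, at -0.46 and Lox, a crosslinking enzyme, at -0.21, whose other probe gave 0.24.

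Of 10 measured collagen receptors, 3 lay above and 7 below 0 (median -0.15), with Mrc2, a collagen uptake receptor, at -0.36 and Itga10, an integrin chain, at 0.55 for its main and -0.68 for its other probe. Of 8 measured collagenases, gelatinases and inhibitors, 3 lay above and 5 below 0 (median -0.21). Mmp8, a collagenase, differed by -0.81 (adjusted p 0.519). The main probe of Mmp9, a gelatinase, was well above background on 3 irradiated arrays but only 1 control array, and no fold is given for it. Other basement membrane genes divided evenly, with 8 above and 8 below 0 (median -0.03), and Lamc1, a laminin chain, stood at -0.23 with probes up to 0.51, and Sparc, a collagen-binding protein, at -0.22, which turned to 0.17 after quantile normalisation. Of 12 fibril-associated matrix genes, 5 lay above and 7 below 0 (median -0.10), with Postn, periostin, at 0.44 (probes from -0.23 to 0.68) and Bgn, the proteoglycan biglycan, at -0.36. Of 12 genes of TGF-beta signalling, a main inducer of fibrillar collagens, 2 lay above and 10 below 0 (median -0.09), with Tgfb3 at -0.24 and Smad2 at -0.21, whose other probe gave 0.15. After quantile normalisation, which puts the median of all measured probes at 0.00, the 7 list medians ranged from -0.15 to 0.04.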

How the data were processed

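The authors deposited scanner intensity values from Agilent Feature Extraction (version 10.7.1.1 per the submitters' processing notes). Per the file headers, background subtraction and detrending were done within each array, with no normalisation between arrays. The multiplicative trend fit was 0 on control 1 and 0.013 to 0.0383 on the other arrays. Probe positions are on mm9, per the file headers. A deposited table of log2 values, whose columns share 1 distribution (normalisation tool not given in the sources used here), served as an alternative (rank correlation with the scanner signal at least 0.997).

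Here, spots marked as outliers were left out and spots of a probe were averaged as log2 signals. Of the 56605 probes, 10 lacked an unmarked spot on some array and were dropped. The 75th percentile over the remaining 56595 probes was then subtracted array by array. The 40552 probes well above background on at least 3 of 6 arrays were fitted in limma 3.58.1 (R 4.3.3, lmFit, eBayes) without covariates. The p-values were adjusted over all of them by Benjamini-Hochberg. The fit was tested on simulated data with independent noise and planted changes larger than any collagen difference here. Changes of the size seen for collagens were therefore not covered by that simulation. Members, lists, marker genes and the rule for named genes (all measured fibrillar and basement membrane genes, a fixed set of others, any member at unadjusted p under 0.05, and 2 genes a list) were chosen with earlier results of these data known. Further probes of these genes, the helix probes, Col10a1, Col13a1 and Col14a1 were added after their values were seen. List genes were matched through RefSeq symbols and synonyms.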

Additional observations from a re-analysis of the deposited data

How the results depend on the processing

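No collagen probe passed the adjusted threshold in any of the alternatives run, for the group or for the replicate number. Fits that left out 1 array each, for the number, were added after results were seen. The 4 collagen probes at unadjusted p under 0.05 (6.56%, 9.03% of all probes) became 11 with normexp correction (16.9% of all probes), 1 with 1 probe a gene (9.17%), 0 without both arrays numbered 1 (3.76%), and 0 to 8 with 1 array left out (3.06% to 15.7%). The replicate block gave 3 (8.59%). Deviations of same-numbered arrays correlated at 0.462, 0.331 and 0.086 over all probes for the numbers 1, 2 and 3, and at 0.441, 0.564 and 0.447 over the 61 collagen probes; 3 of 6 arrays correlated best with their own number. The numbers were not taken as pairs, since the correlation for number 3 was under 0.1. The median difference of -0.071 became -0.279 with normexp, whose median over all probes was -0.20 against -0.05, 0.017 with the percentile over probes detected on all arrays, -0.175 without the filter on dim probes, and -0.162 to -0.03 with 1 array left out. The cause was not tested.

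Of 48 probes, 20 kept their sign under the 12 settings that can move a probe's difference, and 81 of 576 such values turned. The filters, the replicate block and 1 probe a gene cannot move it. Normexp turned Col10a1 (-0.34), the upper Col13a1 probe (-0.50), the upper Col19a1 probe (-0.24), the second Col23a1 probe (-0.31), Col11a2 (-0.27), Col12a1 (-0.23), Col16a1 (0.02), Col23a1 (-0.20), Col4a4 (-0.17), Col5a2 (-0.23), Col6a2 (-0.31), Col6a3 (-0.11), the dimmer Col6a5 probe (-0.27) and Col9a1 (-0.05). Quantile normalisation, with and without the replicate block, and the deposited table turned Col11a2 (-0.07), Col12a1 (-0.06) and Col16a1 (0.07). The other percentile turned Col16a1 (0.02), Col2a1 (0.02), Col5a1 (0.07) and Col5a3 (0.03). Without both arrays numbered 1, Col11a1 (0.08), Col11a2 (-0.15), Col16a1 (0.06), Col2a1 (0.05), Col5a1 (0.05), Col5a2 (-0.01), Col5a3 (0.09), Col8a1 (0.06), Col9a1 (-0.02) and the upper Col19a1 probe (-0.01) turned.

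With 1 array left out, Col11a1 ranged from -0.33 to 0.17, Col11a2 from -0.29 to 0.26, Col12a1 from -0.22 to 0.26, Col16a1 from -0.16 to 0.06, Col18a1 from -0.74 to 0.13, Col19a1 from -0.02 to 0.33, Col26a1 from -0.42 to 0.03 and Col2a1 from -0.20 to 0.13. Col3a1 ranged from -0.74 to 0.07, Col4a2 from -0.03 to 0.22, Col4a5 from -0.34 to 0.05, Col5a1 from -0.30 to 0.33, Col5a3 from -0.31 to 0.33, Col6a2 from -0.16 to 0.26, Col6a3 from -0.15 to 0.44, Col8a1 from -0.55 to 0.09, Col8a2 from -0.84 to 0.05 and Col9a1 from -0.05 to 0.29. Col10a1 ranged from -0.23 to 0.54, the upper Col19a1 probe from -0.12 to 1.17, and the other Col1a1 probes from -0.66 to 0.03 and from -0.70 to 0.01. Without a change of sign, Col1a1 ranged from -0.84 to -0.18, Col1a2 from -0.91 to -0.25, Col4a1 from 0.05 to 0.33, Col4a4 from 0.07 to 0.62, Col5a2 from 0.07 to 0.45, Col6a1 from -0.76 to -0.07, the Col6a5 probes from 0.40 to 0.94 and from 0.62 to 1.33, Col9a3 from 0.23 to 0.93 and Col25a1 from 0.22 to 1.13. With 3 arrays a group, differences inside an interval of about 0.75 to either side were not resolved.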
